A study of Mus musculus with 6 samples.

Results

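The 10 genes described here belong to the cold and heat shock responses of mammalian cells. They are the cold-inducible RNA-binding protein genes Cirbp and Rbm3, the heat shock transcription factor gene Hsf1, and the chaperone genes Hspa1a, Hspa1b, Hspa8, Hsph1, Hsp90aa1, Dnajb1 and Hspb1. Every probe whose gene name in the scanner files equalled one of these symbols was taken, whatever its signal. This gave 22 probes of 56605 on the array and 10 of 37074 gene names. Of the genes, 5 had 1 probe and 5 had several.

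The arrays measured RNA from the hypothalamus of male C57BL/6J mice made obese by diet (DIO mice). All 6 mice ate the same high-fat diet, with 60 kcal% fat, and lived at 22 °C under 12 h of light and 12 h of dark, so both groups shared the obesity, the diet and the ambient temperature. The 3 mice of the GSK-J4 group received this inhibitor of the H3K27 demethylases Kdm6a and Kdm6b at 30 mg/kg, and the 3 mice of the vehicle group received its solvent at a dose of 0 mg/kg. The series places the measurement at day 4, the study's methods describe a longer course of daily injections, and both injections and tissue collection fell in the light phase. No mutation is labelled in either group, each array is taken to hold the RNA of 1 mouse, and the age of the mice is not in the labels. The question put to the temperature-responsive genes was whether their RNA differed between these groups.

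When cells are heated or their proteins misfold, the transcription factor HSF1 binds heat shock elements, repeats of GAA in alternating orientation, and raises the RNA of the inducible chaperones. HSP70 chaperones such as the products of Hspa1a and Hspa8 bind unfolded protein, HSP40 proteins such as that of Dnajb1 stimulate their ATPase, the product of Hsph1 exchanges their nucleotide, and small heat shock proteins such as that of Hspb1 hold clients without ATP. Mild cooling instead raises CIRBP and RBM3, which bind RNA, and in tissues whose temperature follows the daily rhythm of the body both transcripts cycle with it.

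Signals are given as log2 of quantile-normalised intensity, so that a difference of 1 is a doubling. A probe was tested where, in one group or both, the scanner software flagged it well above background on each of the 3 arrays. This kept 34443 probes and 21 of the 22 described here. A probe is said to have risen or fallen where limma's Benjamini-Hochberg adjusted p over all kept probes was at most 0.05. The vehicle arrays lay on one slide, read in one scan, and the GSK-J4 arrays on another, so slide, scan and treatment cannot be told apart. The 75th percentile of the raw signal was 787 to 916 on the vehicle arrays and 406 to 461 on the GSK-J4 arrays. Of 11 hypothalamic marker genes only 5 passed the filter: Npy (means of 11.52 and 11.94 in vehicle and GSK-J4) and Pomc (7.94 and 8.80) were called higher, whereas Oxt, Hcrt and Agrp lay between means of 4.74 and 5.79, and Trh, Avp, Pmch, Nkx2-1, Otp and Sim1 were not kept, so most defining markers of the labelled tissue were at or near background. All 6 choroid plexus markers passed, and the log2 of their summed signals was 16.7 on vehicle 1 against 11.4 to 13.6 on the other 5 arrays. Ttr, the brightest of them, read 16.1 on vehicle 1. In bulk tissue fewer cells of a type and less RNA per cell cannot be told apart.

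The array reads each gene through probes of 60 bases, and several of the results below turn on which probe is read, so the probes in question are shown here, 5′ to 3′ as deposited. The first 3 are shown whole, and of the other 4 the first 30 bases are shown. Over their 60 bases, all but the Hspa1b probe read without a stop codon in at least 1 frame. Positions are those of the files on mouse build mm9, for which no annotation was used here, so exons and untranslated regions were not assigned.
Hspa8 A_55_P2909278, chr9:40611841-40611900, plus strand: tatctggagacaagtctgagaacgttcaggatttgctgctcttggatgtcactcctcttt
Cirbp A_55_P2506450, chr10:79632817-79632955, plus strand: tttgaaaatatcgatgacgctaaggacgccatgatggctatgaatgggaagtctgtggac
Rbm3 A_55_P2117525, chrX:7720785-7720844, minus strand: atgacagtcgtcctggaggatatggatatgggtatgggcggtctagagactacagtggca
Cirbp A_55_P1985001, chr10:79635422-79635481, plus strand: cttctgtggaaaagataaagaagctgggct
Rbm3 A_55_P2766239, chrX:7716198-7716257, minus strand: tgagctatctccctttatttttaaggtcag
Hspa1a A_52_P82741, chr17:35106766-35106825, minus strand: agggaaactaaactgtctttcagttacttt
Hspa1b A_66_P118021, chr17:35093374-35093405, minus strand: taatctaagtaggttaaagatggtgtagtc

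Matches to heat shock elements were looked for in the RefSeq promoters of the members (build GRCm38.p6). Windows were present for 6 of the 10 genes, 9 windows in all, and the 250 bases before the start were searched on both strands for GAANNTTC and TTCNNGAA, the 2 ways in which a pair of GAA units can face each other, and for TCCCCGCC, a GC-rich element named in work on cold induction of Cirbp. Of 32851 promoter windows, 6.69% held GAANNTTC, 7.17% held TTCNNGAA, 12.8% held either and 4.64% held TCCCCGCC. Either heat shock motif was found in Hspa1a, Hspa1b, Hspb1 and Hsph1, 4 of the 6 genes, and in no window of Dnajb1 or Cirbp. In the lines that follow, capitals mark GAANNTTC in the first 3 promoters and TCCCCGCC in the last.
Hspa1a, chr17:34972157-34972406, minus strand: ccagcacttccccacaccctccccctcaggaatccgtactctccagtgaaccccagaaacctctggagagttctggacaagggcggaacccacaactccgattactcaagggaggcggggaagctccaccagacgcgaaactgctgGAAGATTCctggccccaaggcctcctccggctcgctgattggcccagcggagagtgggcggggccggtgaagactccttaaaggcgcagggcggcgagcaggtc
Hspa1b, chr17:34959239-34959488, minus strand: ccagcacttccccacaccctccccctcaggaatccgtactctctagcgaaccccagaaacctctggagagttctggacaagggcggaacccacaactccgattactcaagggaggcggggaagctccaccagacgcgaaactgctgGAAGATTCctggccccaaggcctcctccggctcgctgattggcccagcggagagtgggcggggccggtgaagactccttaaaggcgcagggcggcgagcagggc
Hspb1, chr5:135887669-135887918, plus strand: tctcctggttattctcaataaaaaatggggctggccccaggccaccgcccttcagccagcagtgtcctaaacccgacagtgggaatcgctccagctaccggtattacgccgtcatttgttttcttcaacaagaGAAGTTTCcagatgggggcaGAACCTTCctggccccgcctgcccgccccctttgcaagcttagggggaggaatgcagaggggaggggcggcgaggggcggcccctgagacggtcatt
Cirbp, chr10:80167589-80167838, plus strand: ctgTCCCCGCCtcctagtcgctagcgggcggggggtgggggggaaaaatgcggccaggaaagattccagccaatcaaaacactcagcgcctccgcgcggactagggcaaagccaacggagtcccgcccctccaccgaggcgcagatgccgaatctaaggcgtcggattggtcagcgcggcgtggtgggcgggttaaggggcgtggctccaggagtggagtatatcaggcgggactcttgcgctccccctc
The promoters of the neighbouring genes Hspa1a and Hspa1b differed at 3 of 250 bases (98.8% identical), and both held GAAGATTC at -104 to -97 from the start. Hspb1 held GAAGTTTC at -117 to -110 and GAACCTTC at -97 to -90, and Hsph1 held TTCTCGAA at -54 to -47 from one of its starts. TCCCCGCC was read on the opposite strand of both HSP70 promoters, as GGCGGGGA at -137 to -130, and on the forward strand of Cirbp at -247 to -240. A match is a description of these letters and not a measured binding site.

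Of the cold-inducible genes, Cirbp had 1 of 3 probes called higher and Rbm3 1 of 4 called lower, and the heat-inducible chaperone genes had no called rise in the deposited values (Hsph1 and Hsp90aa1 were called higher when each array was scaled to its 75th percentile). The Cirbp probe rose (1.66-fold higher in GSK-J4), the Rbm3 probe fell (2.20-fold higher in vehicle) and 1 probe of Hspa8, the constitutive HSP70 of the cytosol, fell (1.25-fold higher in vehicle) in the deposited values, although the difference of this Hspa8 probe lay above 0 under the same scaling. No probe of Hspa1a, Hspa1b, Hsph1, Hsp90aa1, Dnajb1, Hspb1 or Hsf1 passed the threshold in the deposited values. In all, 3 of the 21 kept probes (14.3%) were called, 1 higher and 2 lower, against 16.8% of all kept probes (8.39% higher and 8.42% lower), so the share called was no larger among the members than over the array. The methods' t-test, with its thresholds of a 1.5-fold change and a p of 0.05 before adjustment, passed 1 probe higher and 1 lower, against 8.53% of all kept probes, and after adjustment it passed 0, against 0.27%. The groups did not overlap on 10 of the 21 probes, against 45.6% of all kept probes. The median difference, GSK-J4 minus vehicle, was -0.14 over the 21 probes and 0.02 over all kept probes, with 7 members above 0 and 14 below.

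**Figure D1:**
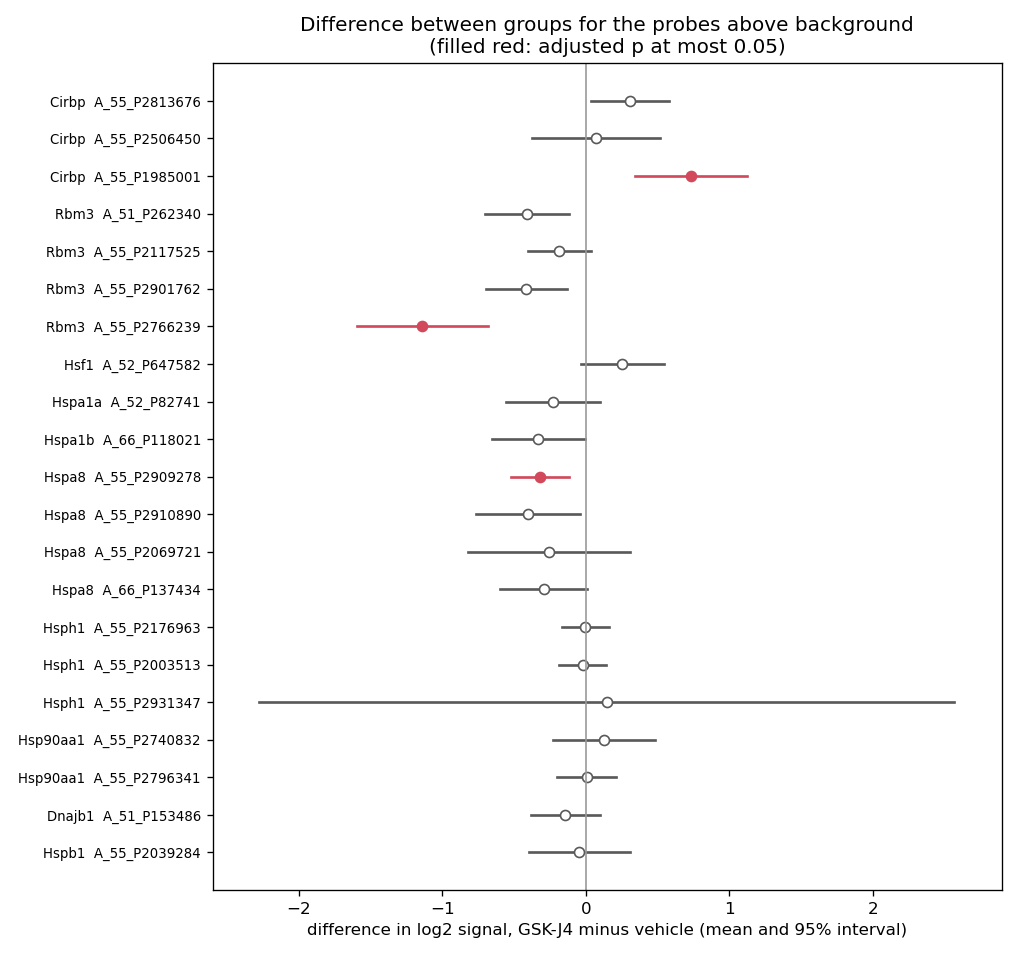
Difference in log2 signal between the groups (GSK-J4 minus vehicle, x axis) with its 95% interval from limma for the 21 kept probes of the temperature-responsive genes (y axis), 3 arrays a group. Filled red points passed an adjusted p of 0.05: 1 probe of Cirbp at 0.73, 1 of Rbm3 at -1.14 and 1 of Hspa8 at -0.32, the last of which turned to 0.13 under 75th percentile scaling.

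Cirbp, whose product binds RNA and stabilises transcripts in mildly cooled cells, was read by 3 probes. Its brightest probe, A_55_P2813676, had log2 signals of 12.46, 12.46 and 12.45 on vehicle 1 to 3 and of 12.99, 12.66 and 12.65 on GSK-J4 1 to 3. The vehicle arrays were nearly level, all 3 GSK-J4 arrays lay above them, and GSK-J4 1 stood highest. The difference of 0.31 (SE 0.11, adjusted p = 0.11) did not pass the threshold. It was called under 75th percentile scaling (0.50, adjusted p = 0.034), and without GSK-J4 1 it was 0.20 (adjusted p = 0.14).

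The called probe, A_55_P1985001, lies 1129 bases beyond the brightest one and is annotated to another transcript (ENSMUST00000054666, where the other probes carry NM_007705). It read 7.86, 7.41 and 7.30 in vehicle and 8.19, 8.31 and 8.28 in GSK-J4. The GSK-J4 arrays were close together and all above the vehicle arrays, of which vehicle 1 was the highest. The difference was 0.73 (SE 0.16, adjusted p = 0.034). It kept its direction under every alternative run, from 0.48 to 0.90, but it was not called once any one array was left out (adjusted p from 0.059 to 0.11).

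The remaining Cirbp probe, A_55_P2506450, printed whole above, read 7.95, 8.02 and 7.73 in vehicle and 8.34, 7.79 and 7.78 in GSK-J4. Only GSK-J4 1 lay above the vehicle range, and the groups overlapped. The difference was 0.07 (SE 0.18, 95% interval -0.37 to 0.52, adjusted p = 0.80), and without GSK-J4 1 it was -0.11.

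Rbm3, the cold-shock paralogue of Cirbp that has been tied to synapse maintenance in the brain, was read by 4 probes on the minus strand of chromosome X. All 4 had every GSK-J4 array below every vehicle array, where the groups did not overlap, in either direction, on 45.6% of all kept probes. They read 1 gene on the same arrays and are not taken as 4 independent readings. The brightest, A_51_P262340, read 12.91, 12.89 and 12.66 in vehicle and 12.60, 12.31 and 12.32 in GSK-J4, a difference of -0.41 (SE 0.12, adjusted p = 0.067). Its lowest vehicle array and highest GSK-J4 array, vehicle 3 and GSK-J4 1, were only a little apart.

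The probe that fell, A_55_P2766239, lies 3398 bases from the brightest. It read 7.69, 7.46 and 7.52 in vehicle and 6.23, 6.81 and 6.21 in GSK-J4. GSK-J4 2 was the nearest to vehicle, and the gap between the groups was wider than the spread within either. The difference was -1.14 (SE 0.19, adjusted p = 0.022). Leaving out single arrays moved it between -1.03 and -1.34, and it was no longer called without vehicle 1 (-1.07, adjusted p = 0.071), vehicle 2 (-1.19, 0.073), vehicle 3 (-1.16, 0.079) or GSK-J4 1 (-1.05, 0.052).

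Of the other probes of Rbm3, A_55_P2901762 read 10.77, 10.72 and 10.53 in vehicle and 10.45, 10.18 and 10.16 in GSK-J4, a difference of -0.41 (SE 0.12, adjusted p = 0.061). The order of the arrays was close to that of the brightest probe. Probe A_55_P2117525, printed whole above, read 11.94, 12.06 and 11.88 in vehicle and 11.83, 11.67 and 11.84 in GSK-J4, a difference of -0.19 (SE 0.09, adjusted p = 0.19). Here the groups were separate by a margin smaller than the spread within either. The 4 probes shared their sign but ranged from -0.19 to -1.14. Under 75th percentile scaling the sign held on all 4, but the brightest probe stood at -0.21 (adjusted p = 0.26) and A_55_P2117525 at -0.04 (adjusted p = 0.79).

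**Figure D2:**
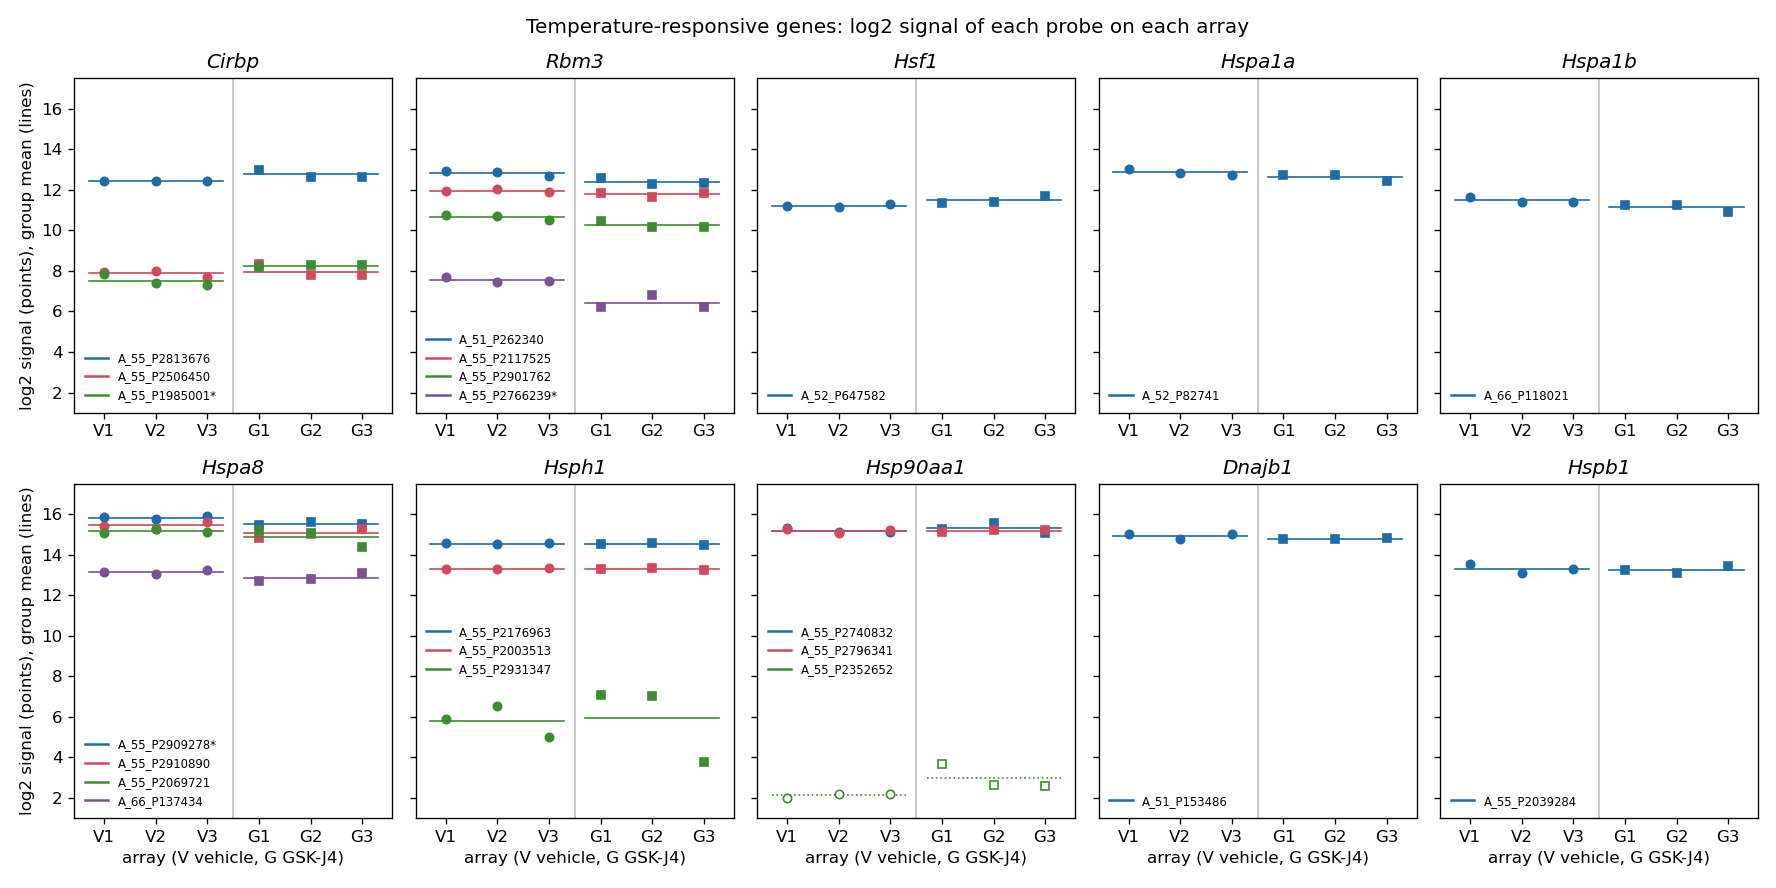
Deposited log2 signal (y axis) of every probe of the 10 genes on each array (x axis), with circles for vehicle (V1 to V3), squares for GSK-J4 (G1 to G3), a line at each group's mean and an asterisk for probes with an adjusted p of at most 0.05. Open symbols mark the Hsp90aa1 probe that was not well above background. All 4 probes of Rbm3 lie lower on the GSK-J4 arrays, by 0.19 to 1.14, while the Hsph1 probe A_55_P2176963 differs by 0.00.

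Across the whole array the difference between the groups varied with the base composition of the probes, and the cold-shock calls have to be read beside it. Of all kept probes with a GC content up to 37%, 1.94% were called higher and 14.9% lower, and their median difference was -0.14. Among those above 49% and up to 55%, 19.97% were called higher and 1.61% lower, with a median of 0.23. The called Cirbp probe has 53.3% GC and the called Rbm3 probe 36.7%, so each lies where the array at large leaned the same way.

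With the trend over GC content taken out, the Cirbp difference was 0.51 and no longer called (adjusted p = 0.097), whereas that of the Rbm3 probe was -1.05 and still called (adjusted p = 0.032). The Rbm3 probes A_55_P2901762 and A_55_P2117525 have 55% and 51.7% GC, where most called probes of the array were higher, and both lay below 0. With the GC trend taken out they stood at -0.65 (adjusted p = 0.032) and -0.40 (adjusted p = 0.040). The brightest Rbm3 probe, A_51_P262340, stood at -0.38 after the same step and was not called (adjusted p = 0.11). The Hspa8 probes, at 45.0% to 46.7% GC, lie in a class with a median of 0.08 and were below it.

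**Figure D3:**
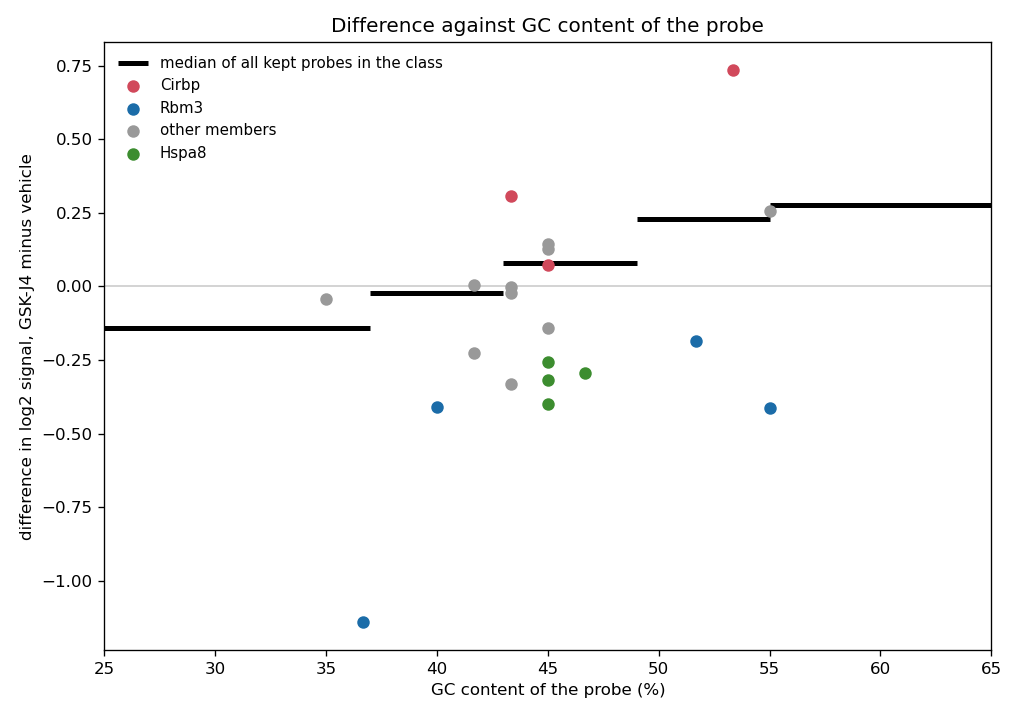
Difference in log2 signal (GSK-J4 minus vehicle, y axis) of the 21 kept probes against the GC content of the probe in percent (x axis), with black bars at the median of all kept probes in 5 classes of GC content. The medians climb from -0.14 to 0.28 with GC content, the called Cirbp probe lies above that line at 0.73, and the Rbm3 probes lie below it across the range.

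Hsf1 encodes the transcription factor that drives the heat shock response. Its probe read 11.19, 11.18 and 11.30 in vehicle and 11.35, 11.38 and 11.70 in GSK-J4, so the groups did not overlap and GSK-J4 3 was highest. The difference of 0.26 (SE 0.12, adjusted p = 0.17) did not pass the threshold. This probe has 55% GC, and with the GC trend taken out the difference was 0.02.

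Hspa1a and Hspa1b encode the inducible HSP70, nearly the same protein from neighbouring genes, and are the classical readout of HSF1 activity. The Hspa1a probe read 13.05, 12.82 and 12.72 in vehicle and 12.75, 12.73 and 12.43 in GSK-J4. The groups overlapped, with a difference of -0.23 (SE 0.13, 95% interval -0.55 to 0.10, adjusted p = 0.27). The Hspa1b probe read 11.65, 11.38 and 11.40 in vehicle and 11.27, 11.24 and 10.93 in GSK-J4.

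The Hspa1b groups did not overlap, and the difference was -0.33 (SE 0.13, 95% interval -0.66 to -0.01, adjusted p = 0.13). On both probes vehicle 1 was the highest array and GSK-J4 3 the lowest. The intervals held no rise above 0.10 on the log2 scale for either gene in the deposited values. Cross-hybridisation between the near-identical copies was not tested, so these are not taken as 2 independent readings.

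Hspa8 encodes the constitutive HSC70, which is abundant in neurons and changes little on heating. The probe that fell, A_55_P2909278, read 15.83, 15.75 and 15.90 in vehicle and 15.44, 15.59 and 15.50 in GSK-J4, with no overlap between the groups. Its difference was -0.32 (SE 0.08, adjusted p = 0.049), and it lay at 0.13 (adjusted p = 0.24) under 75th percentile scaling. Leaving out any one array ended the call, with differences of -0.28 to -0.36 and adjusted p of 0.064 to 0.14.

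The other 3 Hspa8 probes were also below 0 in the deposited values, at -0.40 (A_55_P2910890, adjusted p = 0.11), -0.29 (A_66_P137434, adjusted p = 0.14) and -0.26 (A_55_P2069721, adjusted p = 0.45), while 75th percentile scaling put them at 0.03, -0.08 and 0.15. On A_55_P2910890 the vehicle arrays read 15.43, 15.28 and 15.62 and the GSK-J4 arrays 14.82, 15.04 and 15.27, just apart. The last probe rested on 1 array: it read 15.05, 15.24 and 15.13 in vehicle and 15.20, 15.08 and 14.37 in GSK-J4, and without GSK-J4 3 its difference was 0.00.

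Hsph1, which encodes the HSP110 nucleotide exchange factor of HSP70, was level between the groups on its bright probes in the deposited values. Its bright probes read 14.56, 14.50 and 14.56 against 14.53, 14.58 and 14.50 (A_55_P2176963) and 13.28, 13.29 and 13.34 against 13.28, 13.32 and 13.25 (A_55_P2003513). The arrays of both groups were interleaved. The 95% intervals of the differences ran from -0.17 to 0.16 and from -0.18 to 0.14, whereas 75th percentile scaling put the difference of the first probe at 0.35 (adjusted p = 0.022) and that of the second at 0.23.

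Another Hsph1 probe, A_55_P2931347, was dim and was well above background on 5 of the 6 arrays. It read 5.90, 6.51 and 4.99 in vehicle and 7.06, 7.02 and 3.75 in GSK-J4. The spread within the groups (SE of the difference 0.98) left no usable comparison.

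Hsp90aa1 encodes the stress-inducible cytosolic HSP90. Probe A_55_P2740832 read 15.30, 15.12 and 15.09 in vehicle and 15.27, 15.55 and 15.06 in GSK-J4, a difference of 0.13 (adjusted p = 0.56). Probe A_55_P2796341 read 15.27, 15.06 and 15.20 against 15.12, 15.20 and 15.22, a difference of 0.01 (95% interval -0.20 to 0.21, adjusted p = 0.96). The groups overlapped on both, although under 75th percentile scaling they were called higher at 0.56 and 0.43. The last probe, A_55_P2352652, was not well above background on any of the 6 arrays and was not tested.

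Dnajb1 encodes the HSP40 that hands clients to HSP70 and is itself strongly heat-inducible. It read 15.01, 14.76 and 15.03 in vehicle and 14.78, 14.75 and 14.84 in GSK-J4, a difference of -0.14 (SE 0.10, adjusted p = 0.34). Hspb1, the small heat shock protein HSP25 of the mouse, read 13.51, 13.11 and 13.27 in vehicle and 13.22, 13.09 and 13.45 in GSK-J4, a difference of -0.04 (SE 0.14, adjusted p = 0.85). The groups overlapped for both genes, and 75th percentile scaling turned both to above 0, at 0.27 and 0.20.

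The rest of the chaperone network changed in both directions at about the rate of the array. Of 60 kept probes of 28 other heat shock family genes and HSF1 targets, 5 were called higher and 4 lower (15%, against 16.8% of all kept probes), with a median difference of -0.05. Dnaja1, an HSP40 of the cytosol, rose on 1 probe (0.58, adjusted p = 0.017) and stood at -0.27 (adjusted p = 0.25) on its brightest. Dnajb6, an HSP40 that suppresses aggregation, fell on 1 probe (-0.56, adjusted p = 0.016), by less under 75th percentile scaling (-0.33) and with the GC trend taken out (-0.34).

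Dnajb4, another HSP40, rose on one probe (0.82, adjusted p = 0.040) and fell on another (-0.37, adjusted p = 0.033), the second of which was singled out after its value was seen. With the GC trend taken out neither was called (0.78, adjusted p = 0.056, and -0.22, adjusted p = 0.11). Hspa4 fell on 1 dim probe (-1.63, adjusted p = 0.023) that was above background on 1 of the 3 GSK-J4 arrays, while its probe A_55_P2054157 stood at 0.06. Both Hspa4 and Hspa4l, which fell on 1 probe (-0.74, adjusted p = 0.049), encode HSP110 relatives of Hsph1. The brightest Hspa4l probe, A_55_P2173737, stood at -0.13 (adjusted p = 0.34). The muscle-type small heat shock protein gene Hspb3 rose (0.51, adjusted p = 0.044). The calls of Hspa4l and Hspb3 were lost with the GC trend taken out (adjusted p = 0.085 and 0.071).

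Chaperones of other compartments, which answer to organelle stress more than to heat, were not called on their brightest probes. Hspa5, the HSP70 of the endoplasmic reticulum, stood at -0.25 (adjusted p = 0.10), and the mitochondrial chaperonins Hspd1 and Hspe1 at -0.14 (adjusted p = 0.20) and 0.07 (adjusted p = 0.56). Under 75th percentile scaling the first pair lay above 0, at 0.13 and 0.18, and Hspe1 was called higher.

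Co-chaperones of HSP70 and HSP90 held 4 probes called higher and none lower, of 19 kept probes of 12 genes (21.1% called, against 16.8% of all kept probes, median difference 0.09). Fkbp4, the HSP90-bound immunophilin of steroid receptors, rose on 2 probes (0.48 on each, adjusted p = 0.027 and 0.025). Its other kept probe, A_52_P585104, stood at 0.19 and was not called (adjusted p = 0.17). St13, the HSP70-interacting protein HIP, rose on a dim probe (0.82, adjusted p = 0.032) and stood at -0.06 on its bright one. Hspbp1, a nucleotide exchange factor of HSP70, rose by 0.38 (adjusted p = 0.037), but on this probe of 55% GC the difference was 0.15 (adjusted p = 0.28) with the GC trend taken out, while the adaptor Stip1 (0.25, adjusted p = 0.12) and the HSP90 activator Ahsa1 (-0.15) did not pass.

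Related cold-shock genes had 2 called probes of 15 kept from 8 genes (13.3%, against 16.8% of all kept probes), both higher, with a median difference of -0.12. Carhsp1 rose on 1 probe (0.60, adjusted p = 0.015) and Csdc2 on 1 (0.46, adjusted p = 0.026), and both encode small proteins with a cold shock domain. The Y-box genes Ybx1 and Ybx3 stood at -0.08 and -0.22 on their brightest probes, neither of them called, and the first turned to 0.22 under 75th percentile scaling. The probe-to-probe disagreement seen in Cirbp also held for Carhsp1, whose other probe A_51_P163444 stood at 0.07. It held too for Csdc2, whose dim probe A_55_P2720944 stood at -0.61 (adjusted p = 0.14).

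Ion channels gated by temperature gave 2 probes called higher and 2 lower of 23 kept from 12 genes (17.4%, against 16.8% of all kept probes), with a median difference of -0.18. Kcnk4, the heat- and stretch-gated potassium channel TRAAK, rose on both its named probes (0.44, adjusted p = 0.027, and 0.39, adjusted p = 0.028), and with the GC trend taken out neither was called (0.30, adjusted p = 0.068, and 0.17, adjusted p = 0.15). Trpm2, a warmth-sensing channel of preoptic neurons, fell on 1 probe (-0.69, adjusted p = 0.021) and stood at 0.26 (adjusted p = 0.11) on its brightest, and Trpm8, the menthol receptor, stood at 0.07. Trpm3, a heat-gated channel that the choroid plexus also expresses, fell on 1 probe (-2.14, adjusted p = 0.044). That probe read 8.83 on vehicle 1 against 7.10 and 7.39 on vehicle 2 and 3 and 5.09 to 6.19 in GSK-J4. It was not called with the GC trend taken out (adjusted p = 0.064). The other kept Trpm3 probes were not called in the deposited values. They stood at -0.52 (adjusted p = 0.28), -0.67 (adjusted p = 0.70) and -0.95 (adjusted p = 0.50), with vehicle 1 the highest array on each. The choroid plexus markers were also highest on vehicle 1, and their part in these differences was not tested.

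The list of genes tied to preoptic control of body temperature had 3 probes called higher and none lower, of 9 kept from 6 genes. This was 33.3% called, against 16.8% of all kept probes, with a median difference of 0.48, and the 3 came from 2 genes. The study dissected the whole hypothalamus, so whether these signals came from preoptic neurons was not tested. Lepr, the leptin receptor, rose on probe A_55_P2177910 by 0.66 (adjusted p = 0.015), from 7.93, 8.10 and 8.08 in vehicle to 8.70, 8.66 and 8.73 in GSK-J4, and its other kept probe, A_55_P2506350, stood at -0.06 (adjusted p = 0.97). That dim probe read 7.64 on vehicle 1 against 4.68 and 5.37 on vehicle 2 and 3, so vehicle 1 lifted the vehicle mean. In GSK-J4 the same probe read 5.23, 6.38 and 5.90. Nos1, the neuronal nitric oxide synthase, rose on 2 probes (0.82, adjusted p = 0.025, and 0.49, adjusted p = 0.047), the second of which stood at 0.26 (adjusted p = 0.22) with the GC trend taken out. Adcyap1 (0.48, adjusted p = 0.16), the prostaglandin E receptor gene Ptger3 (0.62, adjusted p = 0.36) and Bdnf (0.00) did not pass.

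**Figure D4:**
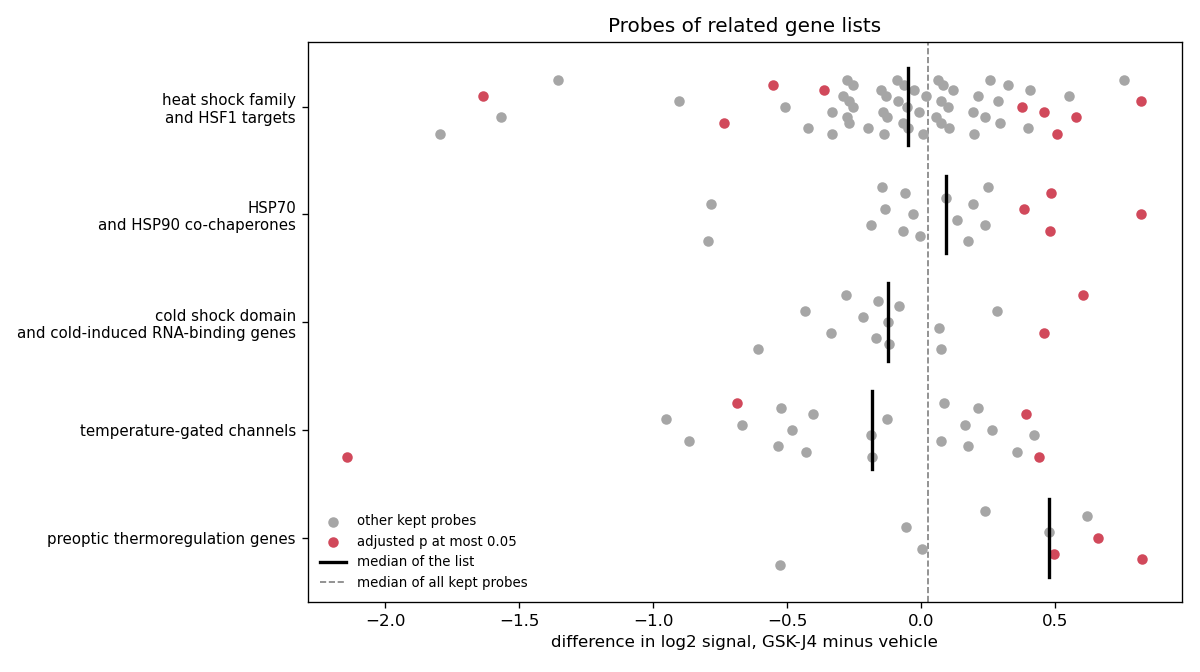
Difference in log2 signal (GSK-J4 minus vehicle, x axis) of every kept probe in 5 lists of related genes (y axis, spread vertically for legibility), with red points at an adjusted p of at most 0.05, black bars at each list's median and a dashed line at the median of all kept probes (0.02). The heat shock family lies on both sides of 0 with 5 probes higher and 4 lower, and the preoptic thermoregulation list has the highest median, 0.48 over 9 probes.

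After the group means were taken out, the kept probes that followed the brightest Cirbp probe most closely over the 6 arrays were those of Cldn23, Mta3 and an intergenic long noncoding RNA (r = 0.999 for each), and those nearest to Hspa1a were Polr2i, Timm21 and Rad18 (r = 0.998, 0.998 and 0.997). These were picked as the highest of all tested pairs over only 6 arrays.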

How the data were processed

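Hypothalamic RNA of 6 mice (3 GSK-J4, 3 vehicle, 1 array each) was labelled with Cy3 and hybridised to Agilent mouse gene expression arrays on which 59305 spots besides controls held 56605 probes. Per the file headers, Agilent Feature Extraction 10.7.1.1 gave the spot intensity values, with positions on mm9. The authors quantile-normalised them in GeneSpring and deposited a table of log2 values, which is used here, and its columns correlated at r = 0.999 or above with the log2 scanner signals. Every value column was mapped to a sample (0 left out). No kept probe was saturated on any array. The number of arrays limits the precision.

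Probes were kept where the scanner flagged them well above background on all 3 arrays of a group, after the study's methods, and fitted together in limma 3.58.1 (R 4.3.3, data.table version 1.17.8) with the group as the only term and Benjamini-Hochberg adjustment. Intervals are at 95%. No probe's level was set against another's. The fit was tested on simulated data. The text names every probe of the members, from each related list up to 6 called probes by size of the difference, and the brightest probe of its first 3 genes, of which 1 is not reported here. The members and lists were chosen with earlier results of these data known. The labels number the replicates of each group, and the study's methods count an individual mouse as an in vivo replicate. Whether RNA of several mice was pooled for an array is not stated.

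Alternatives were normalization from the scanner signals, 75th percentile scaling, normexp with an offset of 50, the filter, 1 probe per gene name, trended and robust variance, the methods' t-test, a lowess correction for GC content (span 30%), the replicate number as a block, and leaving out each array.

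Promoter sequences came from RefSeq (GRCm38.p6) and probe sequences from the scanner files. The members Rbm3, Hspa8, Hsp90aa1 and Hsf1 had no promoter window in the table used.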

Additional observations from a re-analysis of the deposited data

How the results depend on the processing

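Of the member probes, 1 was called higher and 2 lower in the deposited values, and of the probes in the related lists 16 were called higher and 6 lower. Quantile normalization of the scanner signals gave the same 4 counts. In the order members higher, members lower, lists higher and lists lower, the counts were 5, 1, 24 and 9 under 75th percentile scaling, 0, 4, 18 and 12 under normexp, 0, 1, 10 and 5 without the filter, 1, 2, 16 and 10 for probes above background on all 6 arrays, 0, 1, 8 and 2 with 1 probe per gene name, 1, 4, 16 and 13 with trended and robust variance, 0, 4, 10 and 4 with the GC correction and 0, 0, 0 and 0 for the methods' t-test after adjustment. At the methods' own thresholds (a fold of 1.5 and an unadjusted p of 0.05), 1 member probe was higher and 1 lower, where 8.53% of all kept probes passed. Leaving out single arrays gave 0 to 0 members higher, 0 to 1 lower, 0 to 13 list probes higher and 0 to 6 lower. Over all kept probes, 2889 were called higher and 2899 lower (49.9% higher), 1465 and 2222 with the GC correction (39.7%), 56 and 37 by the t-test (60.2%), 1793 and 1972 without the filter, 3463 and 3317 with trended and robust variance, and 5033 and 3652 under 75th percentile scaling. Without vehicle 1, 2 or 3, only 2, 1 and 1 probes were called higher and 8, 12 and 4 lower, and without GSK-J4 1, 2 or 3 the higher and lower calls were 973 and 1429, 2075 and 2090, and 1537 and 2481. The cause of these shifts was not tested.

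The replicate numbers gave little sign of pairing the arrays: deviations from the group means correlated at r = 0.01, 0.03 and 0.08 for numbers 1 to 3. Vehicle 1 and 3, but not vehicle 2, correlated best with the GSK-J4 array of their own number. With the replicate number as a block, 0 member probes were called higher and 0 lower, 0 list probes either way and 0 of all 34443.

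Single probes changed sign as follows, and of the called probes named in the text that of Hspa8 alone did. Under 75th percentile scaling, Cirbp A_55_P2506450 was at -0.033, Hsph1 A_55_P2003513 at 0.23 and A_55_P2176963 at 0.35, Hspa8 A_55_P2069721 at 0.15, A_55_P2909278 at 0.13 and A_55_P2910890 at 0.033, Dnajb1 at 0.27, Hspb1 at 0.20, Hspa5 at 0.13, Hspd1 at 0.18, St13 A_51_P508444 at 0.065, Ahsa1 at 0.33, Ybx1 at 0.22 and Trpm8 at -0.044. Under normexp, Hsph1 A_55_P2176963 was at 0.023, Hsp90aa1 A_55_P2796341 at -0.012, Hspb1 at 0.011, Trpm8 at -0.023 and Bdnf at -0.056. With the GC correction, Cirbp A_55_P2506450 was at -0.0036 and Hspb1 at 0.099. Leaving out single arrays turned the sign of these uncalled probes within the ranges -0.11 to 0.17 (Cirbp A_55_P2506450), -0.026 to 0.018 (Hsph1 A_55_P2176963), -0.41 to 1.24 (Hsph1 A_55_P2931347), -0.41 to 0.00027 (Hspa8 A_55_P2069721), -0.0033 to 0.24 (Hsp90aa1 A_55_P2740832), -0.050 to 0.054 (Hsp90aa1 A_55_P2796341), -0.14 to 0.063 (Hspb1), -0.10 to 0.014 (St13 A_51_P508444), -0.13 to 0.32 (Trpm8) and -0.031 to 0.040 (Bdnf).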
